A study of Mus musculus with 20 samples.

Results

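The collagen genes of the mouse mammary gland were taken as every gene on the array whose symbol has the form Col, a type number, a and a chain number. There were 42 such genes among 18194 genes on the array, and where a gene had several probe sets, the brightest on average over the 20 arrays stood for it. By class, 11 were fibrillar, 8 belonged to basement membranes and 23 to other classes. The glands came from female FVB/N mice heterozygous for the NRL-TGFa transgene (line 1372-1), in which a lipocalin promoter drives transforming growth factor alpha in the mammary epithelium. All 20 animals carried the transgene, so no group shows the gland without it, and all came from a single transgenic line. At 8.5 weeks of age each animal received a subcutaneous implant that released 5 mg of tamoxifen, an oestrogen receptor modulator, or held carrier without drug (placebo). At 20.5 to 21 weeks, 4 weeks after treatment ended, a number 4 gland without tumor was removed from each animal. The animals were then followed for up to 2 years of age for mammary tumors. The labels gave 4 groups, namely 7 placebo animals that later had a tumor, 3 placebo animals without a tumor, 3 tamoxifen animals that later had a tumor and 7 tamoxifen animals without a tumor. Each array measured a single animal, and each value is the log2 expression of a probe set as the authors deposited it.

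Collagens are trimeric proteins of the extracellular matrix. Fibrillar collagens, led by types I, III and V, are made mainly by fibroblasts and assemble into the fibres of the stroma around ducts. Type IV collagen forms the network of basement membranes, which lie under the luminal and myoepithelial layers, around adipocytes and around vessels, and types VI and VII link such membranes to the surrounding matrix.

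Of the 42 collagen genes, 31 passed the filter on dim probe sets, a log2 value over 6.85, the median of the whole data set, in 3 or more animals. These were 9 fibrillar, 7 basement membrane and 15 other collagens. The 11 below the filter were Col10a1, Col11a1, Col13a1, Col17a1, Col19a1, Col24a1, Col26a1, Col4a4, Col6a5, Col8a2 and Col9a2. Of these, Col11a1, Col13a1, Col17a1 and Col4a4 exceeded the level on 2 arrays, while Col4a3 was just inside with 3 arrays. The 3 genes named as marks of the module, Col1a1, Col3a1 and Col4a1, were above the level on all 20 arrays. The tested collagens varied more between animals than most genes. Their median SD over the 20 arrays was 0.30, against 0.14 for all 12499 genes tested, and Col4a5 and Col1a1 lay at the 98.8 and 98.4 percentiles of SD.

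The means of the luminal, basal, milk and white adipocyte marker lists were above this level in all 20 animals. Animals differed in ways that bear on the collagens. The first principal component of all genes held 31.9% of the variance, and placebo animals 8, 7 and 9, all of which later had tumors, lay farthest out on it (-41.13, -30.94 and -14.64, with the other 17 animals between -7.19 and 12.65). Because whole glands were measured, fewer cells of a type and less RNA per cell cannot be told apart. The number of arrays limits the precision.

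Type I collagen, the main fibre protein of the stroma, consists of chains from Col1a1 and Col1a2, and Col3a1 encodes the chain of type III collagen, which shares fibres with it. The 3 genes had their lowest group mean in the placebo animals without a tumor. Col1a1 read 11.56, 10.70 and 10.85 in placebo animals 3, 5 and 6. In the placebo animals with a later tumor it ran from 10.54 to 12.79 (median 11.89), and in the tamoxifen animals without a tumor from 11.66 to 12.56 (median 12.27). The tamoxifen animals with a later tumor read 11.83, 11.09 and 11.48. The placebo animals without a tumor thus lay wholly below the tamoxifen animals without a tumor, while placebo animal 2, which later had a tumor, was lower than any of them. Group means ± SD were 11.04 ± 0.46 (n = 3), 11.86 ± 0.70 (n = 7), 12.17 ± 0.34 (n = 7) and 11.46 ± 0.37 (n = 3) in that order.

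Col1a2 showed the same order of groups within a narrower span. It read 13.12, 12.51 and 12.87 in placebo animals 3, 5 and 6, and 12.85 to 13.82 (median 13.34) in the placebo animals with a later tumor. It read 13.16 to 13.70 (median 13.47) in the tamoxifen animals without a tumor, and 13.42, 12.93 and 13.07 in those with a later tumor. Placebo animal 5 was again the lowest of its group. Col3a1 read 13.38, 12.94 and 13.18 in the placebo animals without a tumor, and 13.47 to 14.02 (median 13.89) in the tamoxifen animals without a tumor. Its values were 12.85 to 14.06 (median 13.75) in the placebo animals with a later tumor, and 13.83, 13.32 and 13.55 in the tamoxifen animals with one. As with Col1a1, placebo animal 2 held the lowest value of all 20.

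**Figure D1:**
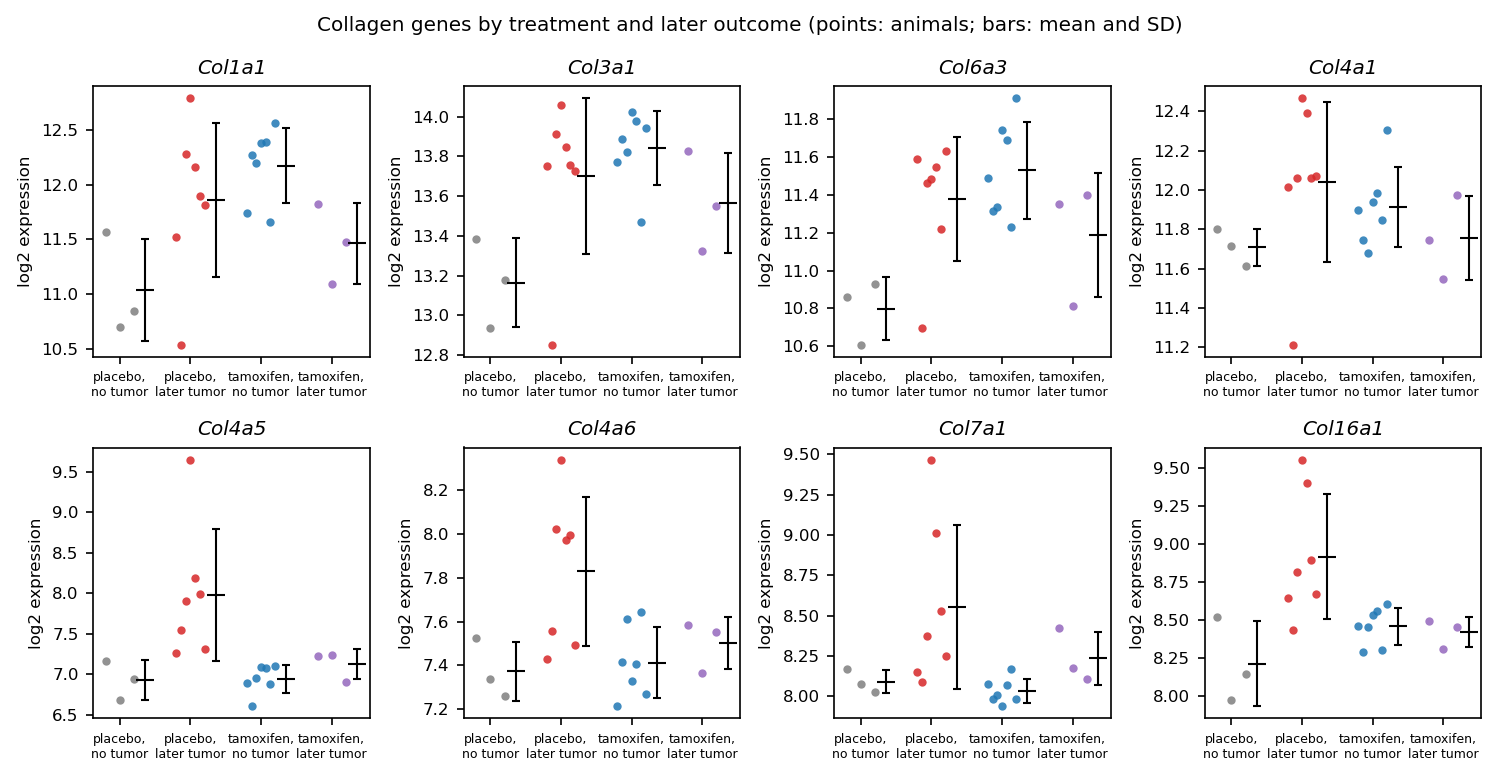
Log2 expression (y axis) of 8 collagen genes in the 4 groups of treatment and later outcome (x axis), with a point per animal and bars for the mean and SD. Col1a1, Col3a1 and Col6a3 have their lowest group mean in the placebo animals without a tumor (11.04 for Col1a1), and Col4a5, Col4a6, Col7a1 and Col16a1 reach their highest values in placebo animals with a later tumor (9.65 for Col4a5).

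The stretch before the transcript start is shown for Col1a2 and Col3a1, which moved together over the 20 animals, and the table of RefSeq promoters held no entry for Col1a1. The letters are from RefSeq on GRCm38.p6, and 33 of the 42 collagen genes had an entry. Each run is 5′ to 3′ on the gene's strand and ends just before the annotated transcript. The Col1a2 run is chr6:4505368-4505617 and the Col3a1 run is chr1:45311288-45311537, both on the plus strand. Capitals mark matches, on either strand, to TATAAA (the TATA box), CCAAT (the CCAAT box) and GGGCGG (the GC box), none of which overlapped here.
Col1a2: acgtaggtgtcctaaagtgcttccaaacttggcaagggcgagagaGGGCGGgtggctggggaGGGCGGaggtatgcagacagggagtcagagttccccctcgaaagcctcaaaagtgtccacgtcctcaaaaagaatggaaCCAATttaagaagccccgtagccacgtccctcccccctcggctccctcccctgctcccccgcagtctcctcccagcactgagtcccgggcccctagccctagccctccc
Col3a1: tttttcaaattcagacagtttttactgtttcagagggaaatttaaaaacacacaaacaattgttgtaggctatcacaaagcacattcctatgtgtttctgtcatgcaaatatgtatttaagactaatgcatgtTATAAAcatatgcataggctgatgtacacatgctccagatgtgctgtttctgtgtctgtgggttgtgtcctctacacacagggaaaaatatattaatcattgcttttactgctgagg
The Col1a2 run held 2 GC boxes and 1 CCAAT box and was 62.0% G and C. The Col3a1 run held a TATA box 117 bases before the start and was 35.2% G and C. The 2 runs therefore shared none of the motifs searched. Both genes had a Pearson r of at least 0.951 with Col1a1, and a link between motifs and correlation was not tested. Among 32851 RefSeq windows of 250 bases, 32.7% held a GC box, 33.8% a CCAAT box and 12.4% a TATA box.

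Type V and type VI chains also had their lowest group mean in the placebo animals without a tumor, while the highest was in tamoxifen animals without a tumor for Col5a3 and Col6a3 and in placebo animals with a later tumor for Col5a1, Col5a2, Col6a1 and Col6a2. Type V collagen, from Col5a1, Col5a2 and Col5a3, sits inside type I fibres and governs their width. Col5a2 read 11.21, 10.63 and 10.61 in the placebo animals without a tumor, 10.75 to 12.28 (median 11.51) in those with a later tumor, and 10.94 to 11.62 (median 11.28) in the tamoxifen animals without a tumor. Col5a3 had a mean of 8.82 in the placebo animals without a tumor, with animal 6 the lowest at 8.73, and read 9.05 to 10.53 (median 9.61) in the tamoxifen animals without a tumor, with no overlap between these groups. Type VI collagen forms beaded filaments near cells and in fat. Its chain Col6a3 read 10.86, 10.61 and 10.93 in the placebo animals without a tumor, against 11.23 to 11.91 (median 11.49) in the tamoxifen animals without a tumor. It read 10.70 to 11.63 (median 11.48) in the placebo animals with a later tumor, and 11.35, 10.81 and 11.40 in the tamoxifen animals with one. Col6a1 read 11.07, 10.72 and 11.10 in the placebo animals without a tumor and 10.98 to 11.68 (median 11.35) in the tamoxifen animals without one, and these groups overlapped. The remaining fibrillar chains tested, Col2a1, Col11a2 and Col27a1, had an SD of at most 0.13 over the 20 arrays.

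Tamoxifen was compared with placebo among animals that stayed free of tumors, 7 against 3, in a limma model of the 4 groups. None of the 31 collagens passed an adjusted p of 0.05 over all genes tested, where 0.064% of genes did. At an unadjusted p under 0.05, 7 of 31 collagens were higher in tamoxifen animals and 0 were lower, against 2.7% and 2.56% of all genes. In 6 of the 31 (Col1a1, Col1a2, Col3a1, Col5a3, Col6a2 and Col6a3) every tamoxifen animal lay above every placebo animal, against 1.3% of all genes tested. The smallest p belonged to Col6a3, with a log2 difference of 0.73 (SE 0.18, adjusted p = 0.237 by limma), then Col1a2 with 0.63 (SE 0.17, adjusted p = 0.262) and Col3a1 with 0.68 (SE 0.19, adjusted p = 0.336). Col1a1 had the widest difference, 1.13 (SE 0.33, adjusted p = 0.405), or 2.19-fold. The median difference was 0.47 over the fibrillar collagens, 0.12 over the basement membrane collagens, 0.07 over the other classes and 0.01 over all genes tested. Col3a1 passed in the fit without placebo animal 2, which is in neither group and enters only through the shared spread (0.68, adjusted p = 0.0321).

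The same 3 placebo animals without a tumor were the baseline for the 7 placebo animals with a later tumor, so this comparison shares them with the last. No collagen passed, and 0.008% of all genes did. At an unadjusted p under 0.05, 13 of 31 collagens were higher in the animals with a later tumor and 1 was lower, Col23a1, a transmembrane collagen, against 6.29% and 7.83% of all genes. Those higher were Col1a1, Col1a2, Col3a1, Col5a1, Col5a2, Col6a1, Col6a2 and Col6a3, and also Col4a5, Col4a6, Col7a1, Col9a1 and Col16a1. The smallest p belonged to Col16a1, at 0.70 (SE 0.18, adjusted p = 0.150 by limma), Col5a2, at 0.78 (SE 0.23, adjusted p = 0.177), and Col1a2, at 0.53 (SE 0.17, adjusted p = 0.189). The 2 groups did not overlap for 1 collagen in the higher direction, Col4a5, and for 1 in the lower, Col23a1, against 2.05% and 2.61% of all genes. Medians were 0.53 for the fibrillar, 0.33 for the basement membrane and 0.17 for the other collagens, against 0.00 for all genes tested.

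Among tamoxifen animals no collagen passed for outcome, and the direction for the type I chains depended on the fit. Col1a1 was lower by 0.71 on the log2 scale in the 3 with a later tumor than in the 7 without (difference -0.71, SE 0.33, adjusted p = 1.00 by limma). Col1a2 differed by -0.33 (SE 0.17) and Col6a3 by -0.34 (SE 0.18), both with an adjusted p of 1.00. With the replicate number as a block the differences were 0.23 for Col1a1 and 0.014 for Col1a2. Without tamoxifen animal 2 that of Col6a3 was -0.15. Of 31 collagens 1 was lower at an unadjusted p under 0.05, Col1a1, and 0 were higher, against 1.46% and 0.632% of all genes. Over all genes 0.008% passed.

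The interaction, the outcome difference in tamoxifen animals minus that in placebo animals, addressed whether the relation to outcome depended on treatment. It was below 0 for 29 of the 31 collagens, and for 6987 of the 12499 genes. Neither a collagen nor any other gene passed (0% of genes, with 4.52% at an unadjusted p under 0.05). A negative interaction had an unadjusted p under 0.05 in 10 of 31 collagens, and a positive one in 0, against 2.7% and 1.82% of all genes. The 10 were Col1a1, Col1a2, Col3a1, Col5a1, Col5a2, Col5a3, Col6a1, Col6a2, Col6a3 and Col16a1, which are 6 fibrillar chains, 3 chains of type VI and a fibril-associated collagen. Col1a2 had -0.86 (SE 0.24), Col6a3 -0.92 (SE 0.26) and Col1a1 -1.53 (SE 0.47), each with an adjusted p of 0.938 by limma. The median interaction was -0.81 over the fibrillar, -0.42 over the basement membrane and -0.22 over the other collagens, against -0.02 over all genes tested. Every such value rests on 3 placebo animals without a tumor and 3 tamoxifen animals with one.

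Marker lists are given beside these collagens. The mean of 9 fibroblast markers lay at 10.74 to 11.06 in the placebo animals without a tumor and at 10.44 to 11.11 in the tamoxifen animals without a tumor, so the groups overlapped. Over the 20 arrays Col1a1 correlated with this mean at r = 0.11 and Col3a1 at r = 0.22. The mean of 8 skeletal muscle markers was 6.61 to 7.24 in the placebo animals without a tumor and 8.00 to 12.20 in the tamoxifen animals without a tumor, without overlap, and correlated with Col1a1 at r = 0.49. The mean of 8 basal and myoepithelial markers was 8.35 to 8.86 in the placebo animals without a tumor and 9.05 to 10.23 in those with a later tumor, without overlap, and 8.67 to 9.39 in the tamoxifen animals without a tumor. It correlated with Col1a1 at r = 0.56, with Col1a2 at 0.59 and with Col3a1 at 0.47. No marker of the muscle or basal lists passed in the comparison of treatments without a tumor or of outcomes within placebo animals, and the part of these cell types in the collagen values was not tested.

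**Figure D2:**
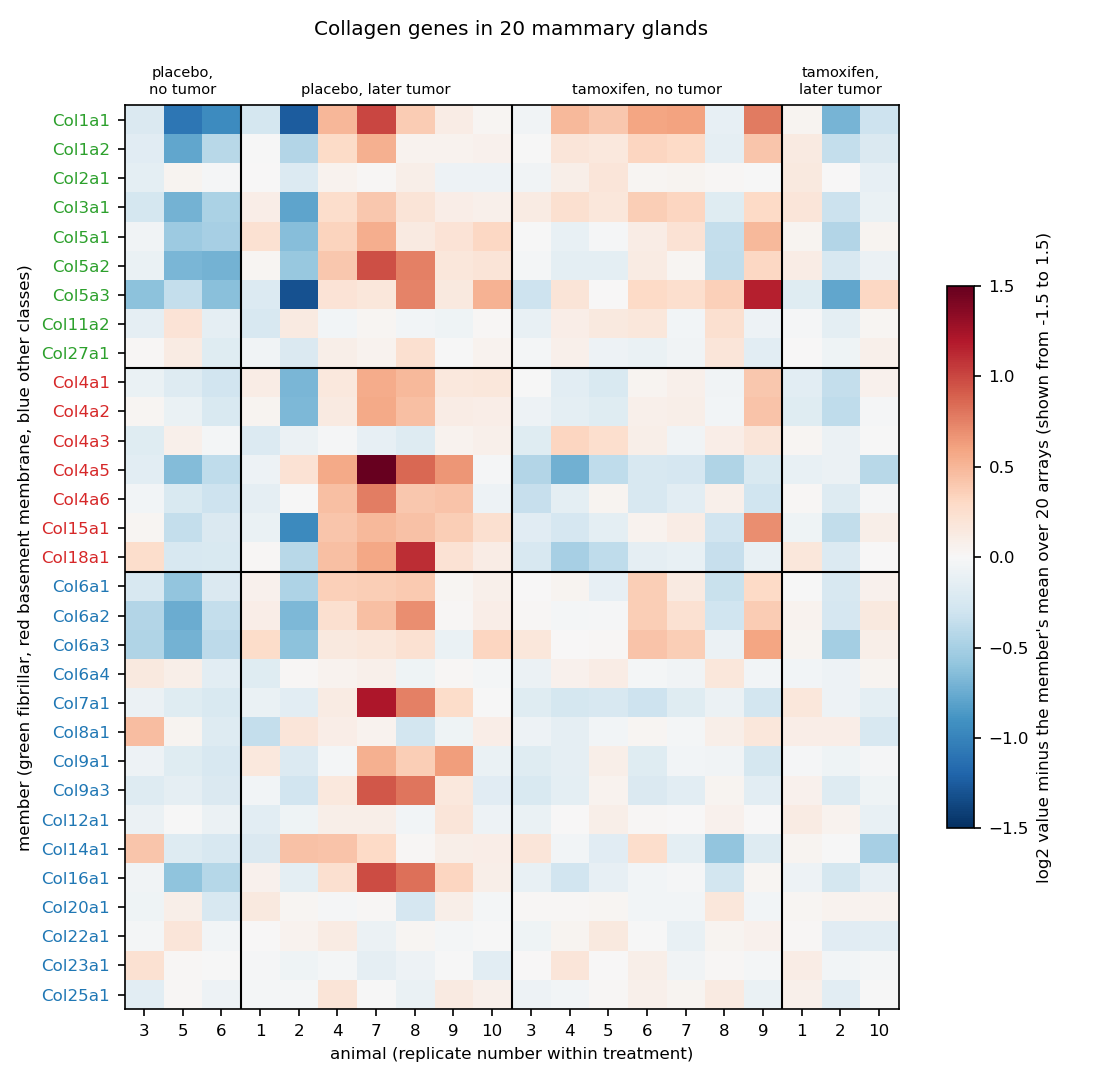
Log2 value of the 31 tested collagens (rows, grouped by class) minus the gene's mean over 20 arrays, in each animal (columns, grouped by treatment and later outcome); red is above and blue below the mean. Placebo animals 2, 5 and 6 are blue across the rows of types I, III and V and of Col6a1, Col6a2 and Col6a3, and placebo animals 7, 8 and 9 are red at Col4a5, Col4a6, Col7a1, Col9a1 and Col16a1, where Col4a5 in placebo animal 7 (9.65) lies beyond the colour range.

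Basement membrane collagens fell into separate patterns. Col4a1 and Col4a2, whose chains form the ubiquitous type IV trimer, had their highest group mean in the placebo animals with a later tumor, by a small margin. Col4a1 read 11.21 to 12.47 (median 12.06) there, 11.80, 11.71 and 11.61 in the placebo animals without a tumor, 11.68 to 12.30 (median 11.90) in the tamoxifen animals without a tumor, and 11.74, 11.55 and 11.97 in those with one. Col4a2 read 10.67 to 11.92 (median 11.46), then 11.38, 11.24 and 11.12, then 11.17 to 11.77 (median 11.30), and 11.16, 10.96 and 11.33 in the same order of groups. The 4 groups overlapped for both genes, with placebo animal 2 lowest and placebo animal 7 highest of the 20. Neither passed in any of the 8 comparisons.

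Col4a5 and Col4a6 encode chains of the type IV trimers found in the basement membranes of some epithelia and of smooth muscle, and they behaved otherwise. Col4a5 read 7.26, 7.55, 7.90, 9.65, 8.19, 7.99 and 7.31 in placebo animals 1, 2, 4, 7, 8, 9 and 10, all of which later had tumors. It read 7.17, 6.68 and 6.95 in the placebo animals without a tumor, 6.61 to 7.10 (median 6.95) in the tamoxifen animals without a tumor, and 7.22, 7.24 and 6.91 in those with one. Each placebo animal with a later tumor thus lay above each of the other 13 animals. Col4a6 read 7.43 to 8.34 (median 7.97) in the placebo animals with a later tumor. It read 7.52, 7.34 and 7.26 in those without, 7.21 to 7.64 (median 7.41) in the tamoxifen animals without a tumor and 7.59, 7.37 and 7.55 in those with one. Its high values came from placebo animals 4, 7, 8 and 9, and the groups overlapped.

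Col4a5 and Col4a6 lie head to head on the X chromosome, with annotated transcript starts 1343 bases apart on opposite strands. Their upstream runs are shown since the genes share this stretch and correlated over the arrays. The letters are from RefSeq on GRCm38.p6, 5′ to 3′ on each gene's own strand, and stop at the first base of any annotated gene. The Col4a5 run is chrX:141475169-141475369 on the plus strand and the Col4a6 run is chrX:141474096-141474326 on the minus strand. Capitals mark matches to the same 3 motifs.
Col4a5: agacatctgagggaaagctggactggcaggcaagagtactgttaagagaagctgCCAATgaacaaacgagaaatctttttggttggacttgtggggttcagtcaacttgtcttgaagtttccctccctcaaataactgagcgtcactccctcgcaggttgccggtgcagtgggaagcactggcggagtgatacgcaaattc
Col4a6: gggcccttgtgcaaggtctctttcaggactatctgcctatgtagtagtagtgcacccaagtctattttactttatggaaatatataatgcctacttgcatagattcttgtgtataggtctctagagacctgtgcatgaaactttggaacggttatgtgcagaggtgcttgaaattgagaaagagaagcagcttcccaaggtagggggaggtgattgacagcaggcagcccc
The Col4a5 run of 201 bases held 1 CCAAT box, 196 bases before the start, and the Col4a6 run of 231 bases held none of the motifs. A CCAAT box was present in 28.6% of RefSeq windows of 201 bases and in 32.3% of those of 231 bases.

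The comparison with the most changed genes set the 7 tamoxifen animals without a tumor against the 7 placebo animals with a later tumor, groups that differ in both treatment and outcome. It called 4.63% of all genes tested. Of the 31 collagens 1 passed, Col4a5, which fell by 1.04 on the log2 scale (difference -1.04, SE 0.26, 2.05-fold, adjusted p = 0.0279 by limma), where 2.4% of all genes passed in the lower direction. Col4a5 was also the only collagen for which the 2 groups did not overlap (lower in 7 of 7 animals), against 1.13% of all genes in that direction. The size moved little where leaving out 1 animal took the adjusted p past 0.05, which happened without placebo animal 8 (-1.001, adjusted p = 0.0564), without tamoxifen animal 3 (-1.03, adjusted p = 0.0515) and without tamoxifen animal 4 (-0.98, adjusted p = 0.0616). Without placebo animal 7, the highest, the difference was -0.76 (adjusted p = 0.00645). Without placebo animals 7, 8 and 9 together the difference was -0.56 with an adjusted p of 0.0405, so it kept its call at a smaller size. A second Col4a5 probe set differed by -0.62 (adjusted p = 0.0656).

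The next smallest p values in this comparison did not pass. Col4a6 differed by -0.42 (SE 0.12, adjusted p = 0.0528 by limma). Col18a1, whose product holds the endostatin fragment, differed by -0.56 (SE 0.16, adjusted p = 0.0570). Col7a1, the anchoring fibril of epithelial basement membranes, differed by -0.52 (SE 0.16, adjusted p = 0.0678). Col16a1 and Col9a1, fibril-associated collagens, differed by -0.46 (SE 0.14, adjusted p = 0.0691) and -0.30 (SE 0.11, adjusted p = 0.113). In all 5 the 7 tamoxifen animals lay below the median of the placebo animals. Without placebo animals 7, 8 and 9 these differences shrank to -0.21, -0.30, -0.18, -0.18 and -0.07, with adjusted p from 0.261 to 0.786. At an unadjusted p under 0.05, 7 of 31 collagens were lower, against 9.34% of all genes, and 2 were higher, Col4a3 and Col23a1, against 11%. The type I and III chains differed by 0.31 (Col1a1, SE 0.26), 0.10 (Col1a2, SE 0.13) and 0.14 (Col3a1, SE 0.15), and Col4a1, Col4a2 and Col6a1 by -0.13, -0.08 and -0.06. Class medians were 0.09 for the fibrillar, -0.13 for the basement membrane and -0.03 for the other collagens, against 0.01 for all genes tested.

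**Figure D3:**
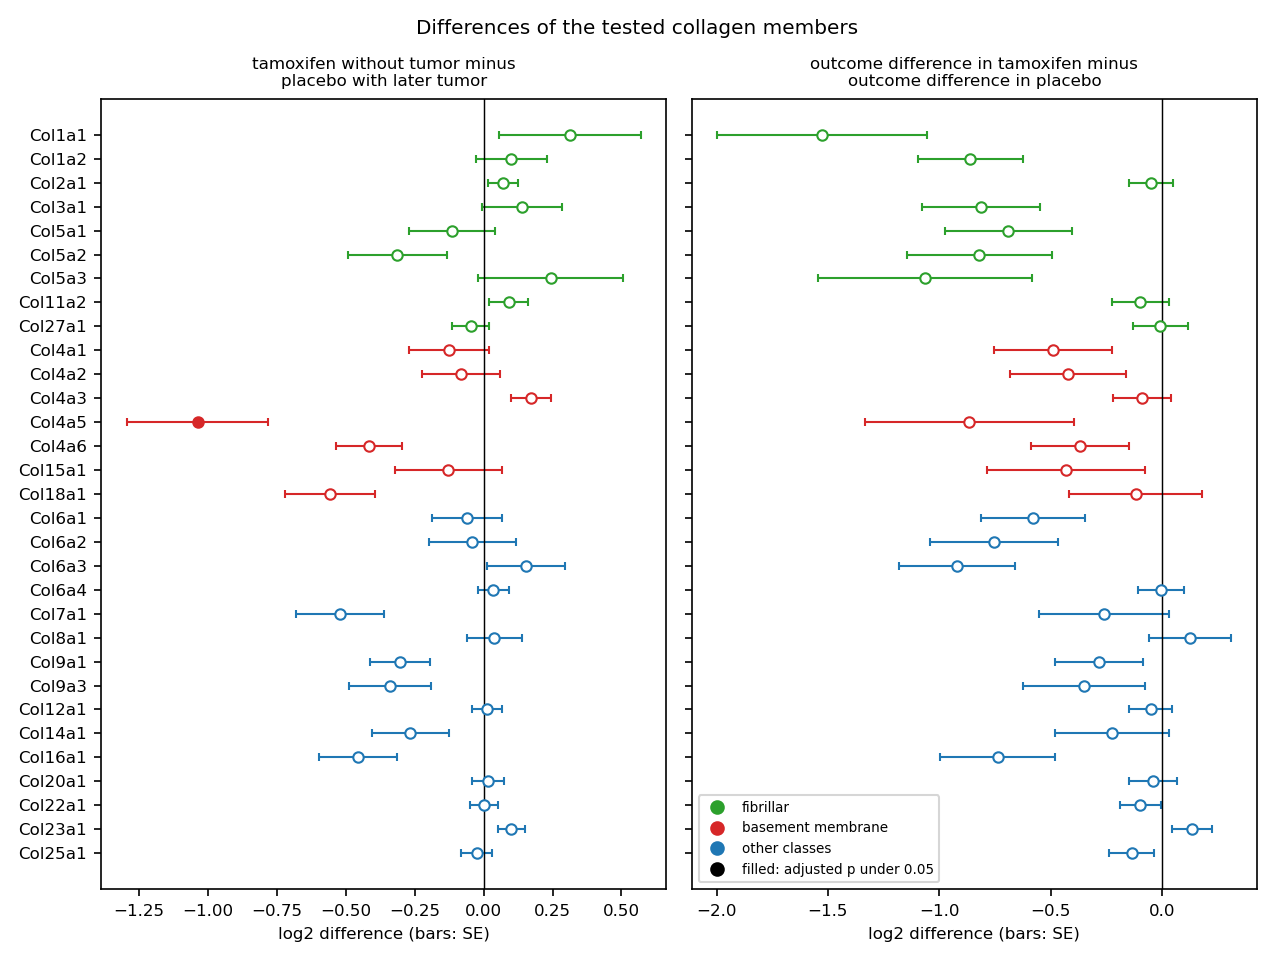
Log2 difference (x axis, bars SE) of the 31 tested collagens, by class colour, for tamoxifen animals without a tumor minus placebo animals with a later tumor (left) and for the interaction (right). Col4a5 on the left (-1.04) is the only filled point, and on the right the lowest values belong to Col1a1 (-1.53), Col5a3 (-1.07), Col6a3 (-0.92) and Col4a5 (-0.86).

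Values in single animals showed how uneven this pattern was. Col7a1 read 9.47, 9.01 and 8.53 in placebo animals 7, 8 and 9, and 8.09 to 8.37 in the other 4 placebo animals with a later tumor. It read 8.17, 8.07 and 8.03 in the placebo animals without a tumor, 7.94 to 8.17 (median 8.01) in the tamoxifen animals without a tumor and 8.42, 8.17 and 8.11 in those with one. Col16a1 read 9.55, 9.40 and 8.90 in placebo animals 7, 8 and 9 and 7.97 to 8.82 in the other 17 animals. Col18a1 peaked in placebo animals 8 (10.60), 7 (10.08) and 4 (9.95). Col9a3, a partner of Col9a1 in type IX collagen, read 8.56 and 8.43 in placebo animals 7 and 8 and at most 7.79 in the other 18. Col17a1, a transmembrane collagen of basal epithelial cells, was below the filter but read 8.38 and 7.82 in placebo animals 8 and 7 and at most 6.64 elsewhere. These epithelial and fibril-associated chains were thus high in placebo animals 7 and 8, which lay farthest out on the first principal component. Placebo animal 9 was high as well for Col7a1 and Col16a1.

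Outcome was also compared over all animals, 10 with a later tumor against 10 without, which is the comparison the series design names. Of the 10 with a later tumor 7 had placebo, and of the 10 without 7 had tamoxifen. The fit held no term for treatment, so outcome and treatment are partly mixed here. No collagen passed, where 0.232% of all genes did. At an unadjusted p under 0.05, 8 of 31 collagens were higher with a later tumor, against 6.79% of all genes, and 1 was lower, against 9.69%. Col4a5 was higher by 0.78 (SE 0.24, adjusted p = 0.121 by limma), with means of 7.72 and 6.94, and 9 of 10 animals with a later tumor lay above the median of the others. Col4a6 differed by 0.33 (adjusted p = 0.138), Col7a1 by 0.41 (adjusted p = 0.147), Col18a1 by 0.41 (adjusted p = 0.153), Col16a1 by 0.38 (adjusted p = 0.166) and Col9a1 by 0.25 (adjusted p = 0.172). The type I and III chains hardly differed by outcome over all animals, at -0.09 (Col1a1, SE 0.27), 0.02 (Col1a2, SE 0.14) and 0.02 (Col3a1, SE 0.15). For the type I chains this pooled opposite directions within treatments in the main fit. Col1a2 differed by 0.53 within placebo animals and by -0.33 within tamoxifen animals, and neither difference passed. Col4a1, Col4a2 and Col6a1 differed by 0.10, 0.03 and 0.13. Class medians were 0.02, 0.11 and 0.03 for the fibrillar, basement membrane and other collagens, against -0.01 for all genes.

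Treatment was compared over all animals in the same way, 10 tamoxifen against 10 placebo. Of the 10 tamoxifen animals 7 had no tumor, and of the 10 placebo animals 7 later had one, so outcome is partly mixed in as well. No collagen passed, where 0.008% of all genes did. At an unadjusted p under 0.05, 4 of 31 collagens were lower in tamoxifen animals (Col4a5, Col18a1, Col7a1 and Col4a6), against 6.96% of all genes, and 1, Col4a3, was higher, against 6.95%. Col4a5 differed by -0.67 (SE 0.25, adjusted p = 0.247 by limma) and Col18a1 by -0.37 (SE 0.15, adjusted p = 0.255). Col7a1 differed by -0.32, Col4a6 by -0.25, Col4a3 by 0.13 and Col14a1, a fibril-associated collagen, by -0.23, with adjusted p from 0.331 to 0.373. Col1a1 differed by 0.35 (SE 0.26), Col1a2 by 0.16, Col3a1 by 0.22, Col4a1 by -0.07, Col4a2 by -0.09 and Col6a1 by 0.04. Within the animals with a later tumor, 3 tamoxifen against 7 placebo, neither a collagen nor any other gene passed (0% of genes, with 7% at an unadjusted p under 0.05), and 3 of 31 collagens were lower at an unadjusted p under 0.05, against 4.4% of all genes, and 0 were higher, against 2.6%. These were Col16a1 (-0.49, SE 0.18), Col4a5 (-0.85, SE 0.33) and Col4a6 (-0.33, SE 0.15), with adjusted p of 0.703, 0.703 and 0.705 by limma. Col4a5 was the only collagen whose groups did not overlap there, in the lower direction, against 1.98% of all genes.

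Markers of the epithelium moved with the Col4a5 pattern. The mean of 9 luminal markers was 9.44 to 10.61 in the placebo animals with a later tumor, against 8.43 to 9.30 in the placebo animals without, 8.60 to 9.57 in the tamoxifen animals without a tumor and 9.15 to 9.50 in those with one. In tamoxifen animals without a tumor against placebo animals with one, 7 of the 9 luminal markers fell and 0 rose, 2 of 8 basal and myoepithelial markers fell, and 5 of 6 milk genes fell. In the same comparison 6 of 8 skeletal muscle markers and 5 of 5 T cell markers rose, and of 9 fibroblast markers 1 rose and 2 fell. Of all genes tested, 2.23% were called higher and 2.4% lower in this comparison. Across the 20 arrays Col4a5 correlated with the luminal mean at r = 0.82 and with the basal mean at r = 0.83, and at 0.63 and 0.50 without placebo animals 7, 8 and 9. For Col7a1 the values were 0.79 and 0.77, and 0.39 and 0.16 without those animals. For Col1a1 they were 0.21 and 0.56. Of 6 cartilage markers 5 were below the filter (Acan, Comp, Matn1, Matn3 and Chad), in glands where the probe sets used for Col9a1 and Col9a3, chains best known from cartilage, were above it. Another Col9a1 probe set exceeded the level only in placebo animals 1, 7, 8 and 9. The mean of the cartilage list correlated with Col9a3 at r = 0.70 and with Col9a1 at r = 0.56 (0.71 and 0.41 without placebo animals 7, 8 and 9). The part of the amount of epithelium in these collagen values was not tested.

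The members' partners in the matrix were described from 5 lists. Of 14 basement membrane partners tested, 6 fell and 0 rose in tamoxifen animals without a tumor against placebo animals with one, namely Agrn, Lama2, Lama5, Lamb1, Lamb3 and Lamc3. There 2.4% of all genes were called lower and 2.23% higher. Lama2, a laminin chain, fell by 0.63 (SE 0.09, adjusted p = 0.00106 by limma), Lamc3 by 0.58 (SE 0.10, adjusted p = 0.00326) and Lama5 by 0.43 (SE 0.09, adjusted p = 0.0115). Over all animals 2 of the 14, Lama2 and Lamc3, were higher with a later tumor, by 0.46 and 0.45 (both adjusted p = 0.0456 by limma), where 0.2% of all genes were called higher. Treatment was unbalanced between those groups, and 0 of the 14 passed for outcome within placebo or within tamoxifen animals. The mean of this list correlated with Col4a5 at r = 0.92 over the 20 arrays (0.79 without placebo animals 7, 8 and 9), with Col4a1 at r = 0.68 and with Col1a1 at r = 0.37. The partners and the collagens were read on the same arrays, and these correlations describe those 20 arrays.

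Genes that fold, process and bind collagens were described in the same way. Of 14 genes for folding and modification, Plod1, a lysyl hydroxylase, rose by 0.28 (adjusted p = 0.0472 by limma) and P3h3 fell by 0.28 (adjusted p = 0.0300) in tamoxifen animals without a tumor against placebo animals with one. Of 11 fibril-associated proteins 2 rose and 2 fell there. Fn1, fibronectin, fell by 0.85 (adjusted p = 0.00299), Thbs2 rose by 0.80 (adjusted p = 0.00799) and Prelp rose by 0.77 (adjusted p = 0.0304). None of 6 genes for procollagen processing and cross-linking and none of 5 collagen receptors passed in that comparison, which called 4.63% of all genes. No gene of the 5 lists passed in the other comparisons, apart from Lama2 and Lamc3 for outcome over all animals.

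Correlations over the 20 arrays were computed for each tested collagen with Col1a1, Col4a1 and Col4a5, 90 relations in all, with p from 100000 permutations and adjusted over the 90. The share of all genes that would pass with these anchors was not computed, so the counts cannot show a trait particular to collagens. With Col1a1, 12 of 30 collagens passed by r, all with a positive r, and the same 12 passed by rho, with Col12a1 as a further collagen there. The strongest were Col1a2 (Pearson r = 0.958, Spearman rho = 0.979) and Col3a1 (r = 0.951, rho = 0.962), each with a permutation p of 1e-05, the smallest these permutations can give, with adjusted p of 6.9e-05 for r and 0.000112 for rho. Without the 2 animals farthest from the Col1a1 median, placebo animals 2 and 5, r was 0.966 and 0.924. Within placebo animals the values were 0.946 and 0.958, within tamoxifen animals 0.975 and 0.925. Col5a1 (r = 0.852), Col6a1 (0.845), Col6a2 (0.838), Col6a3 (0.818) and Col5a2 (0.805) followed.

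With Col4a1, 17 of 30 collagens passed by r and 13 of these also by rho, without Col4a5, Col7a1, Col9a1 and Col9a3. The strongest was Col4a2 (r = 0.981, rho = 0.967, permutation p = 1e-05, adjusted p = 6.9e-05), with r = 0.964 without placebo animals 2 and 7. The transcripts of Col4a1 and Col4a2 start 21 bases apart on opposite strands of chromosome 8. Col15a1, a basement membrane collagen around vessels and muscle, followed (r = 0.918, and 0.874 without placebo animals 2 and 7), then Col5a2 (0.861) and Col5a1 (0.859). The 17 included 6 fibrillar, 4 basement membrane and 7 other collagens.

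With Col4a5, an anchor chosen after its values were seen, 9 of 30 collagens passed by r and 9 by rho, with 5 in common. Col4a1, Col4a2, Col9a1 and Col9a3 passed by r alone, and Col5a1, Col14a1, Col15a1 and Col23a1 by rho alone, the last with a negative value (rho = -0.635, adjusted permutation p = 0.0111). Col7a1 had r = 0.923 and rho = 0.701, Col16a1 r = 0.895 and rho = 0.795, and Col4a6 r = 0.865 and rho = 0.579, with adjusted permutation p of 6.9e-05, 6.9e-05 and 0.000129 for r. Without placebo animals 7 and 8, the 2 farthest from the median, r was 0.728, 0.775 and 0.731. Col4a6 correlated with Col4a5 at 0.931 within placebo animals but at -0.087 within tamoxifen animals, and the difference between treatments was not tested. For Col4a1 and Col4a2, r with Col4a5 was 0.553 and 0.540, and 0.143 and 0.071 without placebo animals 7 and 8, so those relations rested on these animals.

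**Figure D4:**
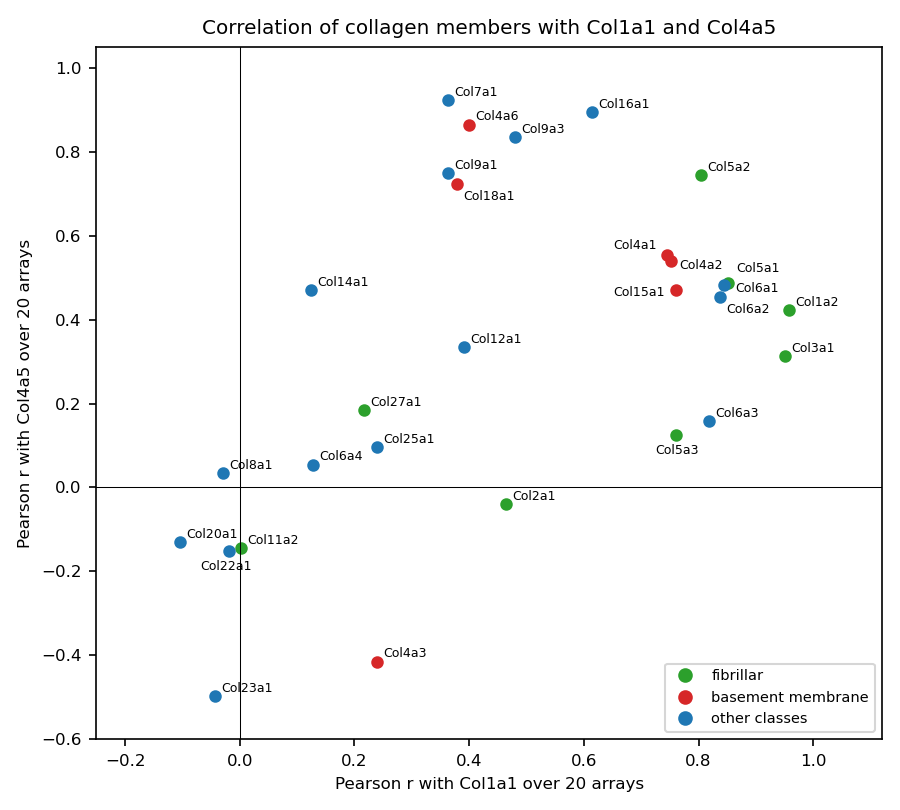
Pearson r over 20 arrays of each tested collagen with Col1a1 (x axis) and with Col4a5 (y axis), coloured by class. The points farthest to the right are Col1a2 (0.958 with Col1a1) and Col3a1 (0.951), and Col7a1, Col16a1, Col4a6 and Col9a3 lie at the top (Col7a1 at 0.923 with Col4a5).

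Neighbouring collagen genes that both passed the filter had a positive r over the 20 arrays, from 0.793 to 0.981. Col6a1 and Col6a2, 85161 bases apart on chromosome 10, had r = 0.966, and Col3a1 and Col5a2, 24624 bases apart on chromosome 1, had r = 0.793. Col9a1 and Col19a1 on chromosome 1 had r = -0.02, with Col19a1 below the filter level on every array, so this value cannot show whether they vary together.

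Different probe sets of a gene gave different sizes. The second Col1a1 probe set gave a difference of 1.90 (SE 0.38) between tamoxifen and placebo animals without a tumor, against 1.13 for the probe set used. For the interaction it gave -2.29 against -1.53. The second Col3a1 probe set gave 1.72 (SE 0.39) against 0.68, and that of Col1a2 gave 1.54 (SE 0.37) against 0.63. For these 3 genes the direction was shared in the comparison of treatments without a tumor, and the size was not. With each of 20937 probe sets tested on its own, the adjusted p of these 3 were 0.0836, 0.184 and 0.260 by limma.

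Col9a1 differed most between probe sets. Its second probe set read 8.65, 8.63 and 8.98 in placebo animals 7, 8 and 9, and 6.08 to 6.95 in the other 4 placebo animals with a later tumor. It read 6.85, 5.59 and 5.37 in the placebo animals without a tumor, 5.46 to 5.73 (median 5.57) in the tamoxifen animals without a tumor, and 6.34, 6.42 and 6.56 in those with one. The 7 tamoxifen animals without a tumor thus lay below all placebo animals with one (difference -1.86, SE 0.40, adjusted p = 0.0158 by limma over all probe sets), against -0.30 for the probe set used. A Col18a1 probe set also passed in this way (-0.56, adjusted p = 0.0288), so that 3 collagens passed among probe sets, Col18a1, Col4a5 and Col9a1, where 3.79% of all probe sets did. The second Col9a1 probe set exceeded the filter level only in placebo animals 1, 7, 8 and 9, all of which later had tumors. It was thus tested only through the group where it was high, and its p in this comparison is no independent support. Of 15 collagens with at least 2 probe sets tested, the signs of their probe sets matched for 14 in this comparison, with Col8a1 the exception. They matched for 13 in the comparison of treatments without a tumor (not Col4a5 and Col9a1), for 12 in treatment over all animals (not Col5a1, Col5a2 and Col6a4) and for 11 in the interaction (not Col6a4, Col8a1, Col18a1 and Col27a1). For outcome over all animals they matched for 13 (not Col1a2 and Col8a1).

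**Figure D5:**
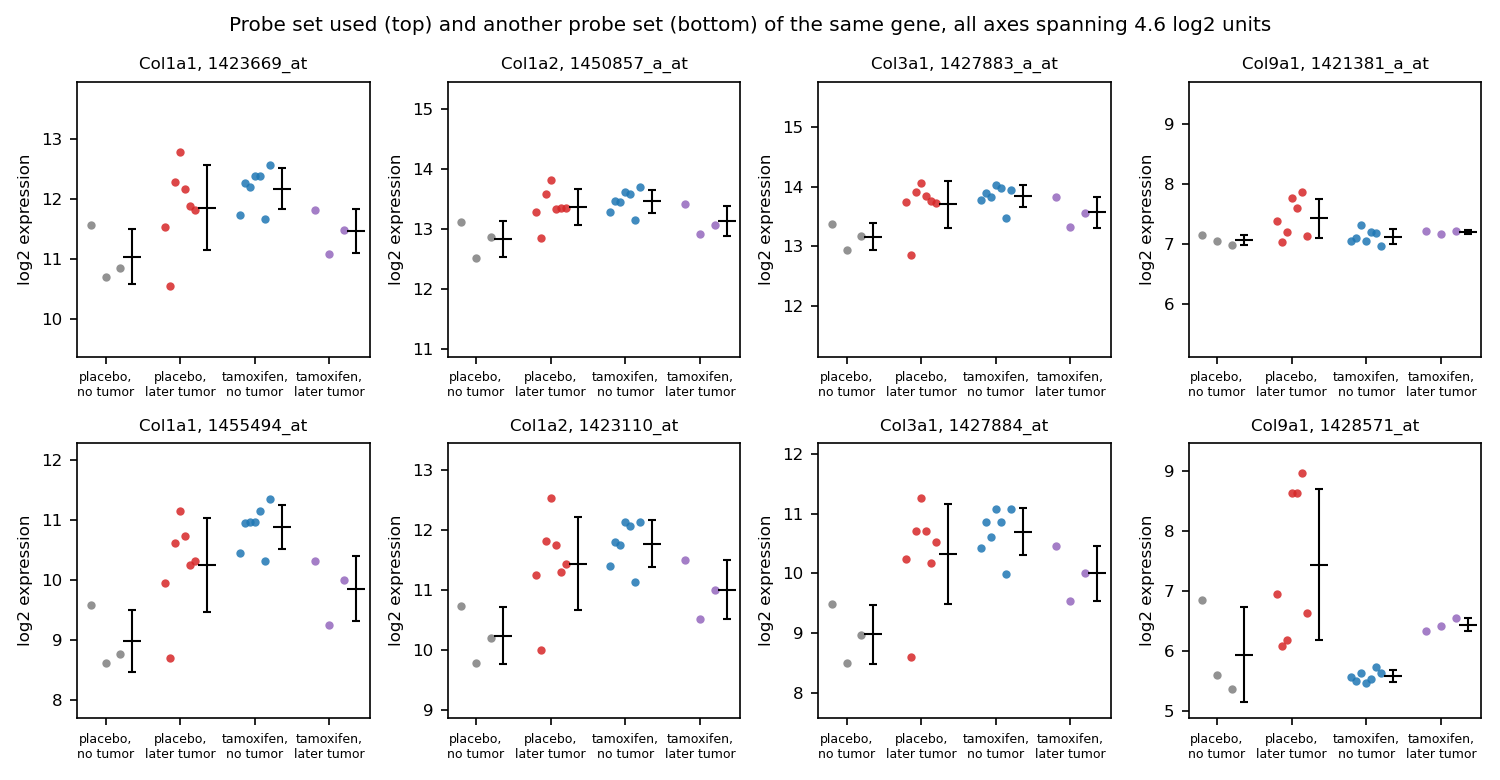
Log2 expression of 4 collagens from the probe set used (top) and another of the same gene (bottom), by group, with a point per animal and bars for the mean and SD. The lower probe sets span more, as for Col9a1, where placebo animals 7, 8 and 9 lie at 8.65, 8.63 and 8.98 and the tamoxifen animals without a tumor at 5.46 to 5.73.

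Most of the remaining tested collagens varied little in the probe set used. Col2a1, Col6a4, Col11a2, Col12a1, Col20a1, Col22a1, Col23a1, Col25a1 and Col27a1 had an SD of 0.09 to 0.13 over the 20 arrays. Col12a1, a fibril-associated collagen, had group means of 8.08 to 8.17. Col8a1, a short-chain collagen of vessels, had group means of 6.73 to 6.87 and a wider SD of 0.19. None of them passed in any of the 8 comparisons.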

How the data were processed

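RNA of 20 mammary glands, 1 per animal, was read on Affymetrix arrays. The authors deposited log2 expression per probe set, made with RMA per the submitters' processing notes; its version was not given in the sources used. The values were used as they stood. All 20 arrays were mapped to groups by their labels. Of 45101 probe sets, 34958 had 1 symbol in the platform table, 932 several and 9211 none, and 34754 took their current symbol from the Entrez ID. Differences were tested with lmFit and eBayes of limma 3.58.1, run under R 4.3.3, two-sided, with Benjamini-Hochberg adjustment over 12499 genes and a threshold of 0.05, in 8 comparisons. The 10-against-10 comparisons had 2 groups, and the others used 1 model of 4 groups. Named collagens were those that passed, filled up by smallest p to 6 for outcome and for treatment over all animals and for the comparison of 7 with 7 (3 elsewhere), plus Col1a1, Col1a2, Col3a1, Col4a1, Col4a2 and Col6a1; lists gave up to 3 members that passed. Others named in the text were chosen after their values were seen. Lists covered 160 genes, 148 with a probe set. Members, lists and tests were chosen with earlier results of these data known. The procedure was tested on simulated data.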

Additional observations from a re-analysis of the deposited data

Results flagged for a closer look

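Animals far from the rest of their group were looked for in the 31 tested collagens in the 2 groups of 7 animals, 62 groups of values, by comparing the gap to the nearest animal with the group's whole range. There were 9 such values, and chance alone gives about 1 in 20 groups. Of the 9, 6 were low values of placebo animal 2 among the placebo animals with a later tumor, namely Col3a1 at 12.85, Col4a1 at 11.21, Col4a2 at 10.67, Col5a1 at 9.40, Col6a1 at 10.84 and Col15a1 at 8.32. These chains of fibrillar, type IV, type VI and type XV collagen correlated with each other over the arrays, so the 6 values are not independent. Col4a5 was high in placebo animal 7, at 9.65. Among the tamoxifen animals without a tumor, Col15a1 was high in animal 9, at 9.97, and Col20a1, a fibril-associated collagen, was high in animal 8, at 7.70.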

How the results depend on the processing

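Settings were the choice of probe set, the filter, array scaling, the variance model, array weights, adjustment for the other factor, blocks, and leaving out each animal. Those chosen after seeing the data were leaving out placebo animals 7 and 8 or 7, 8 and 9, and testing every probe set on its own. In tamoxifen animals without a tumor against placebo animals with one, the count of collagens called was 1, with 579 genes called in all. It became 4 with the mean of all probe sets (531 genes), 2 without a filter (571 genes), 2 with quantile normalization (647 genes), 0 without moderation (356 genes, with Col4a5 at -1.04 and adjusted p = 0.0559), 2 with the run of numbers 1 to 5 and 6 to 10 as a block (663 genes), and 3 with every probe set tested on its own (3.79% of probe sets). The Col9a1 probe set among these 3 passed the filter only through placebo animals with a later tumor. Leaving out 1 animal gave 0 to 6, with 295 to 846 genes called. The count was 0 without placebo animal 8, tamoxifen animal 3 or tamoxifen animal 4, 6 without placebo animal 2, 4 without placebo animal 1, 3 without placebo animal 10 and 2 without tamoxifen animal 8. Leaving out 1 animal gave 0 to 1 for treatment within animals without a tumor (2 to 17 genes), with Col3a1 called without placebo animal 2. In the other 6 comparisons it gave 0.

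Animals share replicate numbers across treatments, and the deviations of same-numbered animals correlated above 0.1 for 4 of 10 numbers (range -0.10 to 0.59). Over outcome numbers this held for 1 of 10. The numbers were not taken to pair the animals, since this did not hold for every number and no label gives their meaning. With the replicate block the count was 7 for tamoxifen without a tumor against placebo with one, where the genes called rose from 579 to 1647, and 3 for outcome within placebo animals (Col3a1, Col4a5 and Col16a1), where they rose from 1 to 602. With that block the outcome difference within tamoxifen animals was 0.23 for Col1a1 and 0.014 for Col1a2, and the treatment difference within animals with a later tumor was 0.0088 for Col4a6, each of the opposite sign to the value reported. Signs were followed through the settings only for the collagens that passed or were filled up by smallest p in each comparison. Among those differences, no other setting reversed a sign. The further differences given for Col1a1, Col1a2, Col3a1, Col4a1, Col4a2 and Col6a1 were not followed in this way. The low number of arrays in the groups of 3 limits what these comparisons can show.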
